A study of Mus musculus with 10 samples.

Results

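Type I interferon-induced genes are described here across sorted brain microglia of Trem2-/- and WT mice on and after a cuprizone diet. The set is a list of 41 genes known to be induced by type I interferon. It was not chosen by a threshold on these values, but it was chosen with earlier results of these data known. Of the 41 genes, 37 were measured by a probe that named 1 gene, among 19749 genes measured in this way. A filter on low signal left 34 of them among the 10792 genes tested. Isg15, Gbp2 and Igtp were found only on probes that name several genes, and Ifi44 was not on a single-gene probe, so these 4 genes have no value. Oas3, Mx1 and Cmpk2 did not pass the filter, which asked for at least 2 arrays above the median of the table (5.27 as a log2 value), and they have levels but no test.

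The series holds 10 arrays, each of total RNA from microglia purified by flow cytometry. All mice were C57BL/6 males of 8 to 12 weeks, either Trem2-/- or WT, and all cuprizone diets held 0.2% of the copper chelator, which kills oligodendrocytes and strips axons of myelin. Each genotype gave 1 library after 4 weeks on cuprizone, 1 after 12 weeks, 1 after each feeding time plus 2 weeks of normal food (recovery), and 1 control library without cuprizone. The Trem2-/- groups are thus cuprizone (2 libraries), recovery (2) and control (1), and the WT groups are the same. Nothing in the labels says that libraries came from separate animals or how many animals each pooled, so the p-values measure only the spread between these libraries, which may be technical. Neither the construction of the Trem2 allele nor the markers of the sort is given in the sources used here.

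Type I interferons, the interferon-alpha family and interferon-beta, bind a receptor made of Ifnar1 and Ifnar2. The receptor acts through a complex that includes Stat2 and Irf9, which enters the nucleus and switches on genes that carry an interferon-stimulated response element. In the brain microglia are among the cells that make and answer interferon-beta, and interferon-responsive microglia are a recurrent state in ageing and in demyelination. Some of the listed genes, such as Irf1 and those for the guanylate-binding proteins and immunity-related GTPases, also answer interferon-gamma.

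Promoter windows of the 250 bases before the annotated start were taken from RefSeq (GRCm38.p6) to show the element for which the set is known. The windows of Ifit1, Isg15, Irf7 and Rsad2 are printed 5′ to 3′ on the strand of the gene, and capitals mark every match to the core of the interferon-stimulated response element, searched on both strands as GAAA repeated after 2 bases of any kind. The Ifit1 window lies at chr19:34640639-34640888 on the plus strand and holds 2 matches, the nearer one at bases -85 to -76 from the start. The Isg15 window lies at chr4:156200819-156201068 on the minus strand and holds 3 overlapping matches, the nearest at bases -66 to -57. The Rsad2 window lies at chr12:26456453-26456702 on the minus strand and holds 1 match, at bases -120 to -111. The Irf7 window lies at chr7:141266425-141266674 on the minus strand, is shown for contrast and has no match to these letters.
Ifit1: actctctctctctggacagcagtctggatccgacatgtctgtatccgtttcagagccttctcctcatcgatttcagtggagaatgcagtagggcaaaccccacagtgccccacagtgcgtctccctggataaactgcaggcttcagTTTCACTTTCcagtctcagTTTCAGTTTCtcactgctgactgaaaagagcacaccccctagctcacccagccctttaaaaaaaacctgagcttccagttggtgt
Isg15: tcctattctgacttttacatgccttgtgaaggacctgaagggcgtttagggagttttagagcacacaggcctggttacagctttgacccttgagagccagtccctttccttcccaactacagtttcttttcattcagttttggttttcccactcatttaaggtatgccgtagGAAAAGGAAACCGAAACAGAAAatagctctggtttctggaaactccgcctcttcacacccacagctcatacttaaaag
Rsad2: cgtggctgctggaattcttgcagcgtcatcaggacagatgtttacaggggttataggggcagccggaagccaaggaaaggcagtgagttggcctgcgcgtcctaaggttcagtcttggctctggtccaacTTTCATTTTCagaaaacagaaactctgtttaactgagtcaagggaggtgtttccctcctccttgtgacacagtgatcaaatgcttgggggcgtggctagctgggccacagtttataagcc
Irf7: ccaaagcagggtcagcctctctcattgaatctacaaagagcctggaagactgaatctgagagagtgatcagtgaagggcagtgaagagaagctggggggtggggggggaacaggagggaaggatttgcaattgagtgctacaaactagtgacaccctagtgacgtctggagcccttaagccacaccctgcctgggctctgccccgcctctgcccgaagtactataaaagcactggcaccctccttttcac
Of the 37 measured genes, 27 had a window in this table, and 10 of these 27 (37.0%) held the motif. Of all 27025 genes in the table, 936 (3.46%) did. The gamma-activated site, the element of the interferon-gamma pathway, searched as TTCNNNGAA, which reads the same on both strands, was found in 5 of the 27 and in 8.13% of all genes. A match is a description of letters in the window and not a measured binding site.

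The labelled genotype and cell type were checked before the results. Trem2 had log2 levels of 7.26 to 7.85 in the 5 Trem2-/- libraries and 10.67 to 10.81 in the 5 WT libraries. All 9 measured microglia markers lay above the table's median in every library. The libraries fall into 2 runs of sample numbers, a second run of 4 arrays with every library titled 12 weeks and a first run of 6 arrays with the others, so feeding time and run cannot be told apart. The runs differ in markers of other cells: the summed intensity of 8 neutrophil markers was 181.6 to 332.6 in the libraries titled 12 weeks and 4445.7 to 13023.2 in the others, and that of 6 monocyte markers was 127.9 to 195.0 against 275.6 to 640.5. In bulk RNA, fewer cells of a type and less RNA per cell cannot be told apart. The Trem2-/- library titled 12 weeks on cuprizone has 4 weeks in its time label and description. It was counted as 12 weeks by its title, and all counts over the pair of libraries at 12 weeks rest on that. The fits that use feeding time were also made with it as 4 weeks. All values are log2 intensities of a probe, so levels are compared between libraries and not between genes.

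The set varied more across libraries than most genes, and its high point was the WT library after 4 weeks on cuprizone. Over the 10 libraries, 23 of the 37 measured genes spanned at least 1 log2 unit, against 14.1% of all measured genes. The span ran from 0.37 for Samhd1, which breaks down deoxynucleotides, to 2.99 for Ifi27l2a, a mitochondrial interferon-induced protein. Its median was 1.43, against 0.65 over all measured genes. The median level of the 37 genes was 7.10 in the WT library after 4 weeks on cuprizone and between 6.42 and 6.81 in the other 9, the lowest of which was the Trem2-/- library titled 12 weeks on cuprizone. The WT library after 4 weeks was the highest of the 10 for 22 of the 37 genes, against 11% of all measured genes and 15.8% of those past the filter. It also had the highest summed intensity of border macrophage (4597.2), monocyte (640.5), T and NK cell (259.6), endothelial (169.7) and erythroid (34.8) markers. Microglia, neutrophil, B cell, plasmacytoid dendritic cell, astrocyte, oligodendrocyte and neuron markers were highest in other libraries. The part of these markers was not tested.

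**Figure D1:**
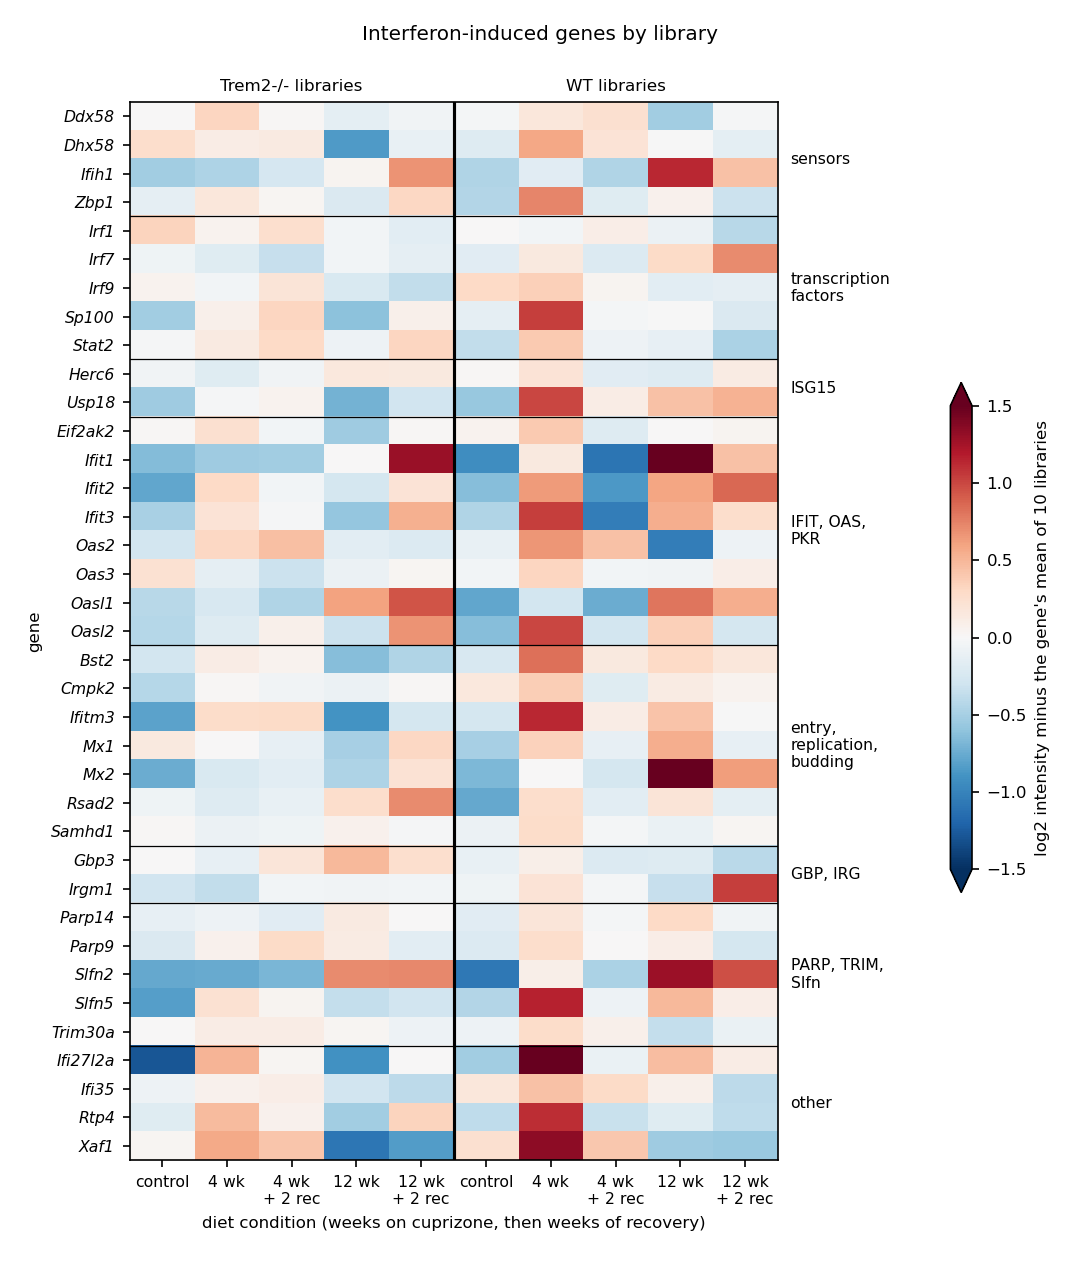
Log2 intensity of each of the 37 measured interferon-induced genes (rows, by role) in each of the 10 libraries (columns, Trem2-/- left and WT right), minus the mean of that gene over the 10 libraries. Colours end at 1.5 log2 units on either side of that mean, and the WT library after 4 weeks on cuprizone holds the highest value for 22 genes.

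In WT microglia, cuprizone libraries lay above the control for most of the set, and at 4 weeks for nearly all of it. Ifit1, which binds foreign RNA and blocks its translation, had log2 levels of 5.44 and 7.12 after 4 and 12 weeks on cuprizone, against 4.35 in the WT control. Oasl2, an oligoadenylate synthetase-like protein, had 6.70 and 6.06, against 5.07. Usp18, the protease that removes ISG15 from proteins and also restrains signalling by the interferon receptor, had 7.00 and 6.43, against 5.43. For each of these 3 genes both cuprizone libraries lay above the control. At 4 weeks 36 of the 37 genes were above the control, against 46.1% of all measured genes and 54.3% of those past the filter. Irf1, a transcription factor of both interferon pathways, was the exception. At 12 weeks 23 of the 37 were above the control, against 51.9% of all measured genes. All 23 were above it at both times, against 30.7% of all genes. The median difference over the 37 genes was 0.76 at 4 weeks and 0.31 at 12 weeks. The summed intensity of the 9 border macrophage markers was 4597.2 and 2027.1 in the same cuprizone libraries, against 1801.9 in the WT control, and that of the monocyte markers was 640.5 and 195.0, against 381.2. All 9 border macrophage markers had a positive fitted difference and 1 of them passed, Ms4a7 (2.17, adjusted p = 0.0485 by limma). Of 7 tested neutrophil markers 6 had a negative difference (median -2.10), as all 9 microglia markers did (median -0.45). The mean log2 level of the 8 measured neutrophil markers was 7.92 at 4 weeks and 4.63 at 12 weeks, against 7.93 in the control. Their fall thus lay in the 12-week library, which is of the second run. The part of these markers in the members' differences was not tested.

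By limma's test with Benjamini-Hochberg adjustment over all 10792 genes, none of the 34 tested members passed between WT cuprizone and control, while 16 genes in all passed (0.148%). At an unadjusted p under 0.05 there were 7 members and 471 genes. The median of the 34 fitted log2 differences was 0.58, against 0.01 over all genes tested. Oasl2 differed by 1.32 ± 0.34 (SE, adjusted p = 0.492), Ifi27l2a by 1.61 ± 0.61, Slfn2, a Schlafen family member needed for T cell quiescence, by 1.76 ± 0.86 and Ifit1 by 1.93 ± 0.92. The Ifit1 controls of both genotypes lay below the table's median, where levels are close to background, so the sizes fitted for Ifit1 here and in the comparisons that follow are uncertain. The WT control of Oasl2 also lay below that median. The lowest values were those of Irf9, the DNA-binding subunit of the interferon-activated complex, at -0.20 ± 0.32, of Ddx58, which encodes the RNA sensor RIG-I, at -0.15 and of Irf1 at -0.07. Irf9 and Ddx58 lay above the control at 4 weeks and below it at 12 weeks. The control is of the first run, while the cuprizone group holds a library of each run. These fitted differences therefore include any difference between the runs. By role, the medians were 1.25 over the 7 tested members of the IFIT, OAS and PKR class and 0.99 over the 5 inhibitors of viral entry, replication and budding. The sensors had a median of 0.66, the transcription factors 0.39 and the guanylate-binding and immunity-related GTPases 0.02.

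With the titled duration as a block and the controls placed beside the 4-week libraries, 2 members passed in WT cuprizone against control, and 105 genes in all passed (0.973%), 102 of them higher (0.945%). Slfn5, a nuclear Schlafen protein, had log2 levels of 6.64 and 5.97 after 4 and 12 weeks of cuprizone, with 5.05 in the WT control, and differed by 1.43 in this fit (adjusted p = 0.041). Its WT control lay below the table's median, so this size is uncertain. Slfn2 had 8.67 and 9.86, against 7.51, and differed by 1.07 ± 0.20 (adjusted p = 0.038). Both cuprizone libraries were above the control for each of these genes. With the conflictingly labelled library taken as 4 weeks in the block, no member passed, and the adjusted p was 0.205 for Slfn5 (1.39) and 0.826 for Slfn2 (1.09). Without the WT library after 4 weeks on cuprizone, the median over the tested members was 0.38 in place of 0.58. The spread of the control, which is 1 library, was taken from the other groups.

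In Trem2-/- microglia the same comparison gave smaller values. Ifit1 had log2 levels of 4.76 and 5.30 after 4 and 12 weeks on cuprizone, against 4.64 in the Trem2-/- control. Oasl2 had 5.51 and 5.38, against 5.27. Usp18 had 5.98 and 5.29, against 5.47, so that its cuprizone libraries lay on both sides of the control. At 4 weeks 26 of the 37 genes were above the control, against 52.6% of all measured genes. At 12 weeks 20 were, against 49%, and 14 were at both times, against 32%. The median difference over the 37 genes was 0.17 at 4 weeks and 0.02 at 12 weeks. The border macrophage markers summed to 4007.4 and 2062.7 in these cuprizone libraries, against 1276.7 in the Trem2-/- control. Of 7 tested neutrophil markers 5 had a negative fitted difference and 2 a positive one (median -1.74). The mean log2 level of the 8 measured neutrophil markers was 7.45 at 4 weeks and 5.11 at 12 weeks, against 7.57 in the control. Most of their fall thus lay in the library titled 12 weeks, which is of the second run. Of 9 microglia markers 6 had a negative difference and 3 a positive one (median -0.09). The part of these markers was not tested.

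None of the 34 tested members passed between Trem2-/- cuprizone and control by limma's test, and none reached an unadjusted p under 0.05. Of all genes, 0% passed, and 100 reached an unadjusted p under 0.05. The median fitted difference of the members was 0.15. The highest values were those of Ifi27l2a at 1.09 ± 0.61, Ifit2, an RNA-binding relative of Ifit1, at 0.79 ± 0.59 and Slfn5 at 0.76 ± 0.35. The lowest were those of Dhx58, which encodes the sensor cofactor LGP2, at -0.64 ± 0.42, of Irf1 at -0.33 and of Xaf1, a pro-apoptotic interferon-induced protein, at -0.29. Xaf1 lay above the control at 4 weeks and below it at 12 weeks. As in WT, the control is of the first run only, so the fitted differences include any difference between the runs. Without the Trem2-/- library after 4 weeks on cuprizone the median was 0.04 in place of 0.15.

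The difference between the 2 responses was itself tested. The cuprizone response of Trem2-/- microglia minus that of WT microglia had a median of -0.46 over the 34 tested members and was below 0 for 27 of them, against a median of 0.00 over all genes. None passed by limma's test, 1 member reached an unadjusted p under 0.05, and 1 gene of all tested passed (0.00927%) with 159 at an unadjusted p under 0.05. Both cuprizone libraries lay below the control in Trem2-/- and above it in WT for 2 of the 37 measured genes, Dhx58 and Mx1, against 6.82% of all measured genes, and the opposite was met by 0 of the 37 and by 7.99% of all. Among the lowest fitted values were -1.14 ± 0.48 for Oasl2 and -1.13 for Mx2, a dynamin-like antiviral GTPase. Ifit1 had -1.54 ± 1.30, of uncertain size, since both controls (4.64 in Trem2-/- and 4.35 in WT) and the Trem2-/- library after 4 weeks (4.76) lay below the table's median. The highest were 0.42 for Oas2, an oligoadenylate synthetase that activates RNase L, 0.24 for Ddx58 and 0.12 for Gbp3, a guanylate-binding protein. The median was -0.20 without the WT library after 4 weeks on cuprizone and also -0.20 without the Trem2-/- library titled 12 weeks on cuprizone. In the same difference all 9 microglia markers were above 0 (median 0.36), as were 6 of 7 neutrophil markers (median 0.46). Of 9 border macrophage markers 7 were above 0 and 2 below (median 0.49). Of 5 monocyte markers 2 were above 0 and 3 below (median -0.50). The part of these markers was not tested.

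**Figure D2:**
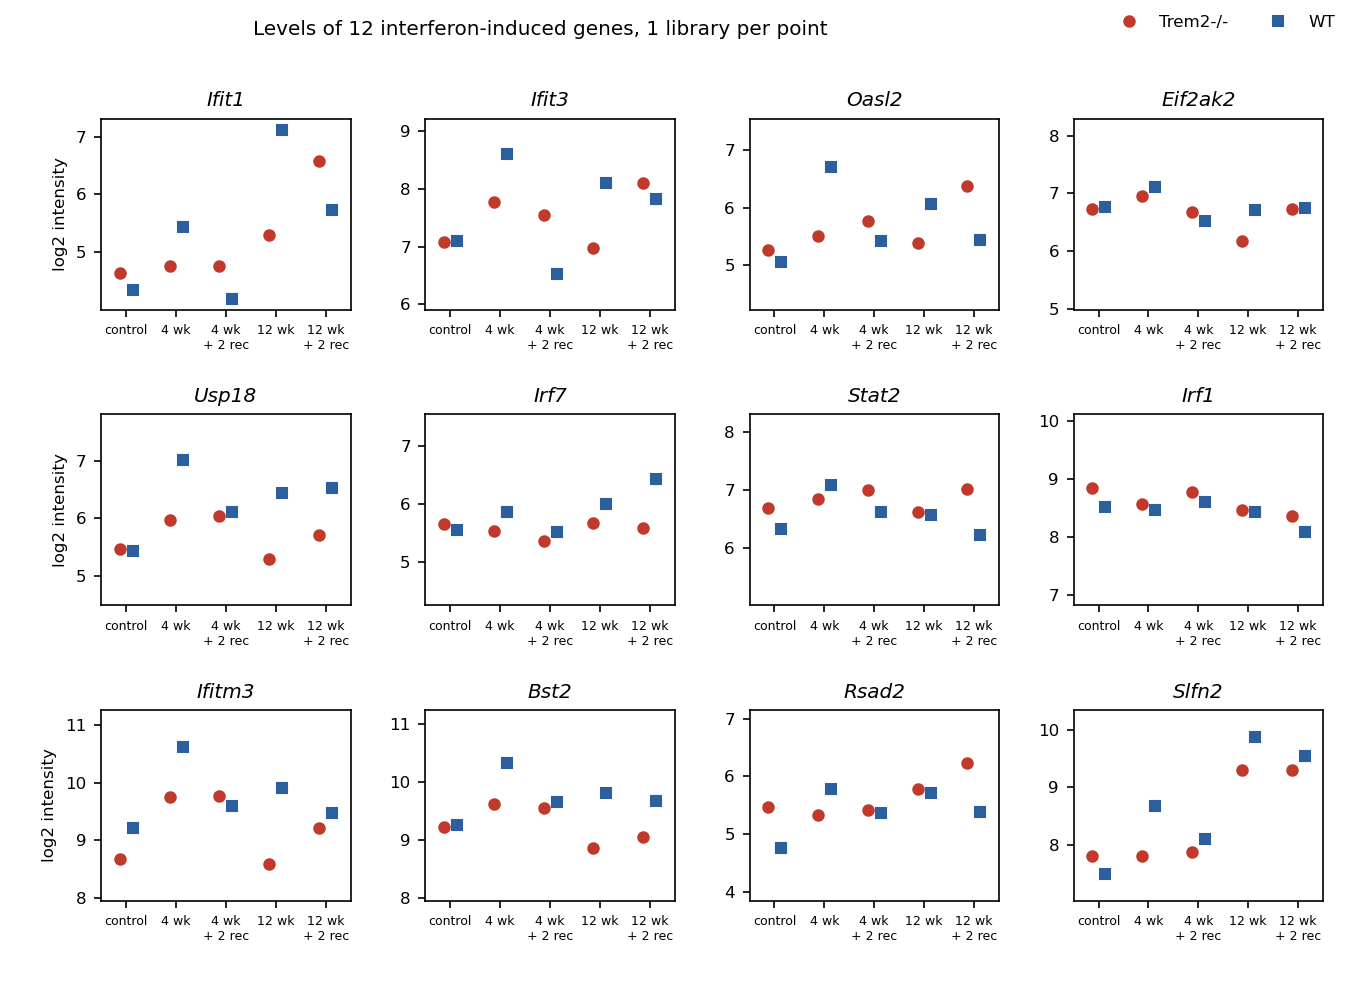
Log2 intensity of 12 interferon-induced genes in every library (y axis) by diet condition (x axis), with 1 point per library, red circles for Trem2-/- and blue squares for WT. Ifit1, Usp18, Ifitm3 and Bst2 have higher WT than Trem2-/- points at both feeding times on cuprizone, and Irf1 has a Trem2-/- point above the WT point in each of the 5 conditions.

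Set directly against WT on cuprizone, Trem2-/- microglia had lower values for most of the set. At 4 weeks 34 of the 37 genes were lower in Trem2-/-, against 45.6% of all measured genes and 53.6% of those past the filter. The exceptions were Ddx58, Irf1 and Oasl1, which in mice restrains translation of Irf7. At 12 weeks 26 were lower, against 52.6%, and 25 were lower at both times, against 25.4%. The library of conflicting labels, set against the WT library after 4 weeks in place of 12, was lower for 32 of the 37 genes, against 47% of all measured genes, with a median of -0.48. Both Trem2-/- libraries lay below both WT libraries for 15 genes, against 13.8% of all measured genes. These were Bst2, Cmpk2, Ifi35, Ifit1, Ifit2, Ifit3, Ifitm3, Irf7, Mx1, Mx2, Oas3, Oasl2, Parp14, Slfn5 and Usp18. No gene of the set had both Trem2-/- libraries above both WT libraries, against 15% of all measured genes.

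By limma's test none of the 34 tested members passed between Trem2-/- and WT on cuprizone, where 36 genes in all passed (0.334%), 1 higher and 35 lower in Trem2-/-. At an unadjusted p under 0.05 there were 7 members and 482 genes. The median difference was -0.40 over the 34 tested members and -0.37 over all 37 measured, against 0.00 over all genes tested. It was -0.22 without the WT library after 4 weeks on cuprizone. With the titled duration as a block again no member passed, the smallest adjusted p was 0.0528, 15 members reached an unadjusted p under 0.05, and 153 genes passed (1.42%), 138 of them lower (1.28%).

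Among the regulators, Usp18 had log2 levels of 5.98 and 5.29 in the Trem2-/- libraries after 4 and 12 weeks on cuprizone, against 7.00 and 6.43 in the WT libraries, a difference of -1.08 ± 0.31 (SE, adjusted p = 0.546). Irf7, the factor that amplifies interferon-alpha production, had 5.54 and 5.68 in Trem2-/- libraries, against 5.87 and 6.00 in WT libraries. For both genes the Trem2-/- libraries did not overlap the WT libraries. Stat2, a subunit of the interferon-activated complex, had 6.83 and 6.62 in Trem2-/- libraries, against 7.09 and 6.57 in WT libraries. Irf1 had 8.56 and 8.47 in Trem2-/- libraries, against 8.47 and 8.43 in WT libraries. The genotypes overlapped for Stat2 and lay close together for Irf1. The 5 tested transcription factors had a median of -0.24 and the 4 sensors a median of -0.54.

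Among the effectors that act on RNA and translation, Ifit1 had log2 levels of 4.76 and 5.30 in Trem2-/- libraries after 4 and 12 weeks on cuprizone, against 5.44 and 7.12 in WT libraries, a difference of -1.25 ± 0.75. Ifit3, a partner of Ifit1 in the same complex, had 7.77 and 6.98 in Trem2-/- libraries, against 8.60 and 8.10 in WT libraries. Oasl2 had 5.51 and 5.38 in Trem2-/- libraries, against 6.70 and 6.06 in WT libraries, a difference of -0.94 ± 0.28 (adjusted p = 0.607). For all of these genes the Trem2-/- libraries lay below the WT libraries, and the Ifit1 gap was -0.68 at 4 weeks and -1.82 at 12 weeks. Eif2ak2, which encodes the double-stranded RNA-dependent kinase PKR, had 6.95 and 6.17 in Trem2-/- libraries, against 7.10 and 6.71 in WT libraries, which overlap. The class of 7 had a median of -0.60, with 6 lower in Trem2-/-. Oas2 was the member with a positive value, 0.26 ± 0.51, and its difference was -0.35 at 4 weeks and 0.87 at 12 weeks. Its 12-week levels on cuprizone lay below the table's median in both genotypes, as did both controls. The sizes given for Oas2 here and in the other comparisons are therefore uncertain.

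The inhibitors of viral entry, replication and budding were lower in Trem2-/- for all 5 tested members, with a median of -0.83. Ifitm3, which blocks fusion of viruses in endosomes, had log2 levels of 9.76 and 8.59 in Trem2-/- libraries after 4 and 12 weeks on cuprizone, against 10.62 and 9.91 in WT libraries, a difference of -1.09 ± 0.40. Bst2, which encodes tetherin and holds budding virus at the cell surface, had 9.61 and 8.86 in Trem2-/- libraries, against 10.32 and 9.80 in WT libraries, a difference of -0.83 ± 0.31. Neither gene overlapped between the genotypes. Rsad2, which encodes viperin, a maker of a chain-terminating nucleotide, had 5.33 and 5.79 in Trem2-/- libraries, against 5.79 and 5.72 in WT libraries, which overlap. The Mx2 difference of -1.19 was uneven in time, -0.24 at 4 weeks and -2.15 at 12 weeks, while that of Ifi27l2a was -1.19 and -1.37, for -1.28 ± 0.49 in the fit.

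The other classes had smaller or less even differences on cuprizone. The 4 genes without a common role, Ifi27l2a, Ifi35, Rtp4, a chaperone of receptors, and Xaf1, were all lower in Trem2-/-, between -1.28 and -0.37. Of the 5 ADP-ribosyltransferase, TRIM and Schlafen genes 4 were lower, between -0.88 for Slfn5 and -0.09 for Parp9, and Trim30a, which restrains Toll-like receptor signalling, had 0.10 ± 0.24. Herc6, the ligase that attaches ISG15 in mice, had -0.02 ± 0.23, and Irgm1 had -0.14 ± 0.35. Among the sensors, Ifih1 had -0.69 ± 0.49 and Zbp1, which senses left-handed nucleic acids, had -0.42 ± 0.26. Samhd1 was the most even inhibitor, with log2 levels of 9.23 and 9.38 in Trem2-/- libraries after 4 and 12 weeks, against 9.59 and 9.23 in WT libraries. The 3 genes below the filter had 4.92 and 4.42 (Mx1), 4.63 and 4.67 (Oas3) and 4.01 and 3.91 (Cmpk2) in Trem2-/- libraries, against 5.26 and 5.46, 5.09 and 4.71, and 4.36 and 4.12 in WT libraries. Of these values only the 12-week WT level of Mx1 lay above the table's median.

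Ddx58 at 0.27 ± 0.27, Oas2 and Gbp3 at 0.24 ± 0.24 were the highest members in this comparison. The summed intensity of the 9 microglia markers was 24383.2 to 28785.6 in the Trem2-/- libraries on cuprizone and 20868.4 to 23520.0 in the WT ones. The monocyte markers summed to 440.6 and 163.0 in Trem2-/- after 4 and 12 weeks, against 640.5 and 195.0 in WT. The 5 plasmacytoid dendritic cell markers summed to 650.7 to 803.2 in Trem2-/- and 809.9 to 908.7 in WT, but their mean log2 levels overlapped (6.05 to 6.41 in Trem2-/- and 6.32 to 6.48 in WT). Of the 4 tested, 2 were higher in Trem2-/- and 2 lower, with Cox6a2 the lowest at -1.15. The summed intensity of the 9 border macrophage markers was 2062.7 to 4007.4 in Trem2-/- and 2027.1 to 4597.2 in WT, and that of the 5 endothelial markers, 1 of 5 above the table's median in Trem2-/- and 2 of 5 in WT, was 133.0 to 153.5 in Trem2-/- and 155.2 to 169.7 in WT. Of the 2 endothelial markers tested, 1 was lower in Trem2-/- and passed by limma's test (-1.64), where 0.334% of all genes passed. The other was higher (0.68) and did not pass. The part of these markers in the differences was not tested.

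**Figure D3:**
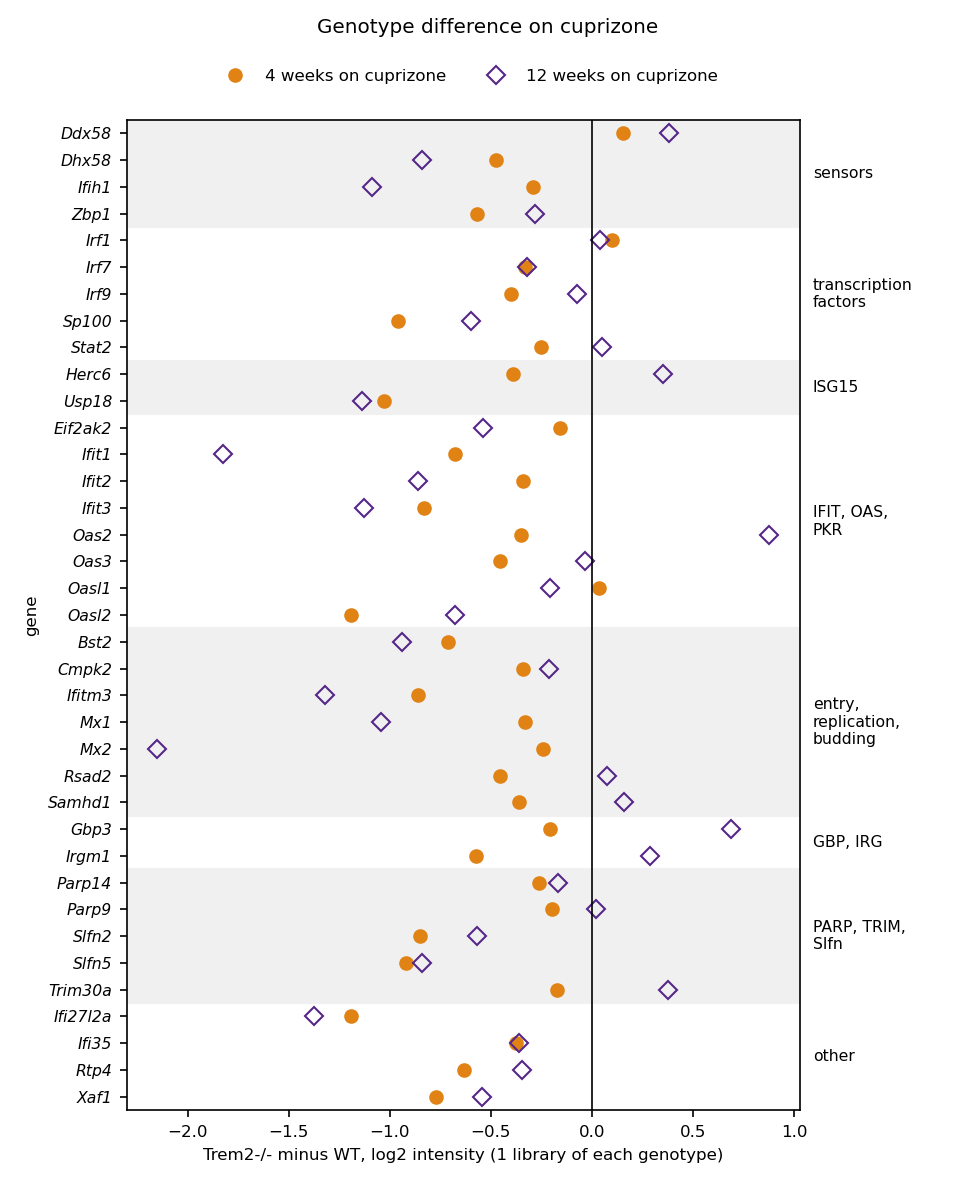
Difference in log2 intensity on cuprizone, Trem2-/- minus WT, for each of the 37 measured interferon-induced genes, with 1 point for the pair of libraries at 4 weeks and 1 for the pair at 12 weeks. At 4 weeks 34 of the points lie below 0, and at 12 weeks 26 do.

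In the control libraries the genotypes differed in both directions, by -0.76 to 0.70 for single genes. In this pair, 1 library each and therefore without a test, 18 of the 37 genes were lower in Trem2-/-, against 50.3% of all measured genes, and the median difference was 0.03. Over the 5 conditions matched between genotypes, entered as a block, the median was -0.15 over the 34 tested members. None of them passed by limma's test, 9 reached an unadjusted p under 0.05, and 28 genes in all passed (0.259%) with 1162 at an unadjusted p under 0.05. The lowest differences were -0.66 ± 0.20 for Ifi27l2a, -0.60 ± 0.18 for Usp18 and -0.56 ± 0.18 for Ifitm3, and the highest were 0.33 ± 0.14 for Gbp3, 0.26 ± 0.14 for Stat2 and 0.24 ± 0.17 for Rsad2. The median was -0.07 without the pair after 4 weeks on cuprizone, -0.08 without the pair after 12 weeks on cuprizone, and -0.08 if the conflicting library is taken as 4 weeks. All 9 microglia markers were higher in Trem2-/- over these conditions (median 0.14) and 6 of 7 neutrophil markers lower (median -0.47). Of 2 tested endothelial markers, 1 was higher and passed by limma's test (0.63), and 1 was lower and did not (-0.99). The part of these markers was not tested.

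Bst2 was the only measured member lower in Trem2-/- in 5 of 5 conditions, where 4.69% of all measured genes were. In the order control, 4 weeks, 4 weeks and recovery, 12 weeks, 12 weeks and recovery, its log2 levels were 9.22, 9.61, 9.56, 8.86 and 9.04 in Trem2-/- libraries, against 9.26, 10.32, 9.65, 9.80 and 9.68 in WT libraries. The difference of -0.48 ± 0.14 had an adjusted p of 0.242. Irf1 was the only one higher in Trem2-/- in 5 of 5, against 4.23% of all measured genes. In the same order it had 8.84, 8.56, 8.77, 8.47 and 8.36 in Trem2-/- libraries, against 8.52, 8.47, 8.61, 8.43 and 8.09 in WT libraries, a difference of 0.18 ± 0.09. The Bst2 gaps were widest on cuprizone and after 12 weeks with recovery, and those of Irf1 were widest in the control and after 12 weeks with recovery.

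After the 2 weeks of recovery, libraries of WT microglia lay below their cuprizone libraries for most of the set. For the 4-week feeding 35 of the 37 genes were lower after recovery than on cuprizone, against 48.1% of all measured genes, with Ddx58 and Irf1 as exceptions. For the 12-week feeding 25 were lower, against 51.4%. Ifit3 had log2 levels of 6.52 and 7.83 in WT recovery after 4 and 12 weeks of feeding, against 8.60 and 8.10 on cuprizone. Ifitm3 had 9.60 and 9.48 in WT recovery, against 10.62 and 9.91 on cuprizone. For both genes each recovery library was below its cuprizone library, and the Ifit3 gap was wider after 4 weeks. Usp18 had 6.11 and 6.52 in WT recovery, against 7.00 and 6.43 on cuprizone, so that it was lower after 4 weeks of feeding and not after 12. The monocyte markers summed to 417.1 and 127.9 in these recovery libraries, against 640.5 and 195.0 on cuprizone, and the border macrophage markers to 3874.8 and 1789.6, against 4597.2 and 2027.1. All 9 microglia markers (median 0.14) and 6 of 7 neutrophil markers (median 0.35) had a positive difference. The part of these markers in the members' differences was not tested.

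By limma's test none of the 34 tested members passed between WT recovery and cuprizone, where 0% of genes passed, with 4 members and 295 genes at an unadjusted p under 0.05. The median was -0.39, the lowest values were -1.32 ± 0.75 for Ifit1, -1.18 ± 0.45 for Ifit3 and -1.08 ± 0.49 for Ifi27l2a, and Oasl2 had -0.95 ± 0.28. The highest were 0.57 for Irgm1, an immunity-related GTPase that regulates autophagy, 0.37 for Oas2 and 0.29 for Ddx58. Without the WT library after 4 weeks on cuprizone the median was -0.15.

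In Trem2-/- microglia, 16 of the 37 genes were lower after recovery than on cuprizone for the 4-week feeding, against 53.9% of all measured genes, and 11 for the 12-week feeding, against 47.7%. Oasl2 had log2 levels of 5.77 and 6.38 in Trem2-/- recovery after 4 and 12 weeks of feeding, against 5.51 and 5.38 on cuprizone. Ifit1 had 4.77 and 6.58 in Trem2-/- recovery, against 4.76 and 5.30 on cuprizone. Both genes were higher after the 12-week feeding with recovery than in any other Trem2-/- library, and Ifit1 was near its control level in both libraries fed for 4 weeks. None of the 34 tested members passed by limma's test or reached an unadjusted p under 0.05, and 0% of genes passed, with 64 at an unadjusted p under 0.05. The median was 0.07. The highest values were 0.65 ± 0.75 for Ifit1, 0.63 ± 0.28 for Oasl2 and 0.47 for Sp100, a nuclear body protein, and the lowest were -0.13 for Irf7, -0.10 for Parp14, an ADP-ribosyltransferase, and -0.10 for Ddx58. Without the Trem2-/- library after 4 weeks on cuprizone the median was 0.26, and without the one titled 12 weeks on cuprizone it was 0.00.

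The recovery change of Trem2-/- minus that of WT had a median of 0.50 over the 34 tested members, against 0.00 over all genes tested, and was above 0 for 29 of them. It was 1.96 ± 1.06 for Ifit1, 1.62 ± 0.64 for Ifit3 and 1.58 ± 0.39 for Oasl2, and the lowest values were -0.40 for Irgm1, -0.39 for Ddx58 and -0.32 for Oas2. None passed by limma's test, 0% of genes passed, and 2 members and 161 genes reached an unadjusted p under 0.05. For 10 of the 37 genes the recovery library was above its cuprizone library at both feeding times in Trem2-/- and below it at both in WT, which held for 5.74% of all measured genes and rests on the conflictingly labelled library as 12 weeks. They were Dhx58, Ifih1, Ifit1, Ifitm3, Mx2, Oasl2, Rsad2, Slfn2, Sp100 and Stat2. The order takes no account of size. The Trem2-/- step was close to 0 for Ifit1, Ifitm3 and Dhx58 after the 4-week feeding and for Slfn2 after the 12-week feeding. Over the 37 genes the median step after the 4-week feeding was 0.01 in Trem2-/- and -0.46 in WT. The opposite pattern was met by 0 of the 37 and by 6.06% of all measured genes. In the same difference all 7 tested neutrophil markers (median -0.70) and all 9 microglia markers (median -0.17) were below 0, and 4 of 5 monocyte markers were above it (median 0.41). Their part was not tested.

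**Figure D4:**
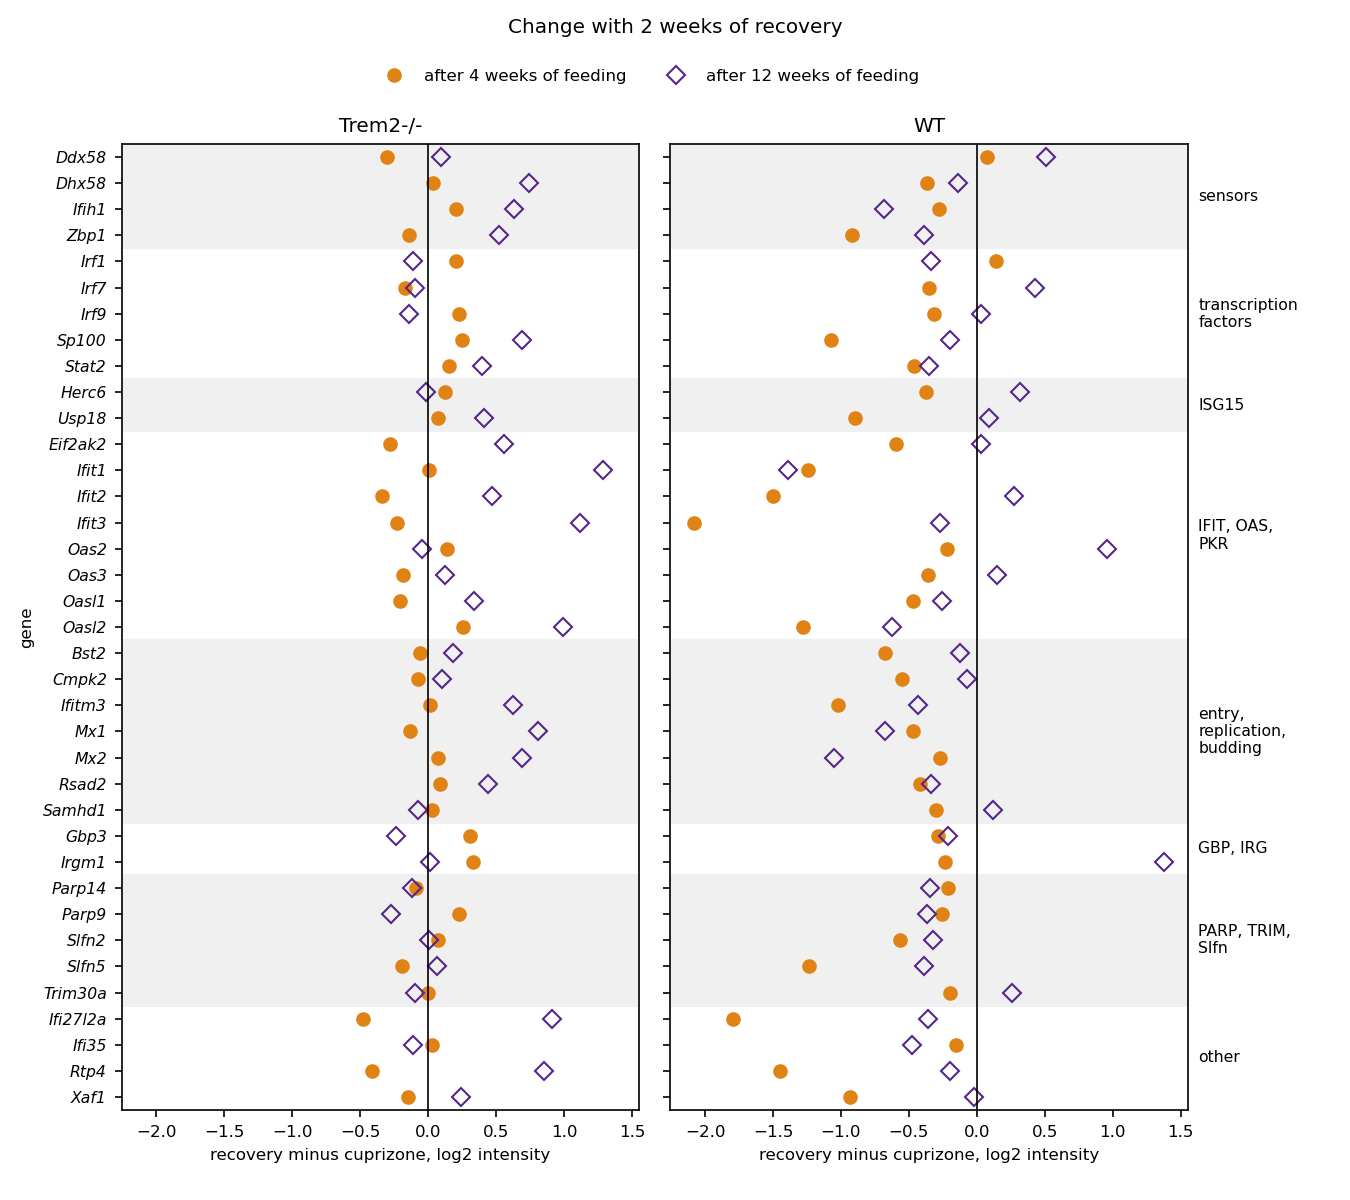
Recovery minus cuprizone in log2 intensity for each of the 37 measured interferon-induced genes, Trem2-/- in the left panel and WT in the right, with 1 point for the 4-week and 1 for the 12-week feeding. Of the 37 points, 35 (4 weeks) and 25 (12 weeks) lie below 0 in WT, against 16 and 11 in Trem2-/-.

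The control and recovery levels of the remaining key genes are given in the order control, recovery after 4 weeks, recovery after 12 weeks. Irf7 had log2 levels of 5.66, 5.37 and 5.59 in Trem2-/- libraries, against 5.55, 5.52 and 6.43 in WT libraries. Rsad2 had 5.47, 5.42 and 6.23 in Trem2-/- libraries, against 4.76, 5.37 and 5.38 in WT libraries. The highest Irf7 value lay in the WT library after 12 weeks and recovery, and the highest Rsad2 value in the Trem2-/- library of the same condition. Ifit3 had 7.07, 7.54 and 8.09 in Trem2-/- libraries, against 7.11, 6.52 and 7.83 in WT libraries. Eif2ak2 had 6.72, 6.67 and 6.73 in Trem2-/- libraries, against 6.76, 6.51 and 6.74 in WT libraries, which lie close together. Usp18 had 5.47, 6.05 and 5.71 in Trem2-/- libraries, against 5.43, 6.11 and 6.52 in WT libraries. Stat2 had 6.68 in the Trem2-/- control and 6.32 in the WT control. For Ifit3 and Stat2 both Trem2-/- recovery libraries were above the WT library of the same feeding time, and for Usp18 both were below it.

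Between the genotypes in recovery, more of the set lay higher in Trem2-/- after the 4-week feeding, and the directions were even after the 12-week feeding. Trem2-/- was higher for 26 of the 37 genes after the 4-week feeding, against 48.2% of all measured genes, and lower for 11, against 51.8%. It was lower for 18 after the 12-week feeding, against 49.1%. All 7 tested neutrophil markers were lower in Trem2-/- recovery (median -0.84). Their summed intensity after the 4-week feeding was 4445.7 in Trem2-/-, against 13023.2 in WT, and that of the monocyte markers was 275.6 in Trem2-/-, against 417.1 in WT. Their part in the members' differences was not tested. Stat2 had log2 levels of 6.99 and 7.02 in Trem2-/- recovery after 4 and 12 weeks of feeding, against 6.62 and 6.22 in WT recovery, a difference of 0.58 ± 0.24. Oasl2 had 5.77 and 6.38 in Trem2-/- recovery, against 5.42 and 5.44 in WT recovery, a difference of 0.64 ± 0.28. Neither gene overlapped between the genotypes, and both were higher in Trem2-/-. Both Trem2-/- libraries lay above both WT libraries for 8 genes, against 12.3% of all measured genes, namely Gbp3, Mx1, Oasl2, Rsad2, Rtp4, Sp100, Stat2 and Zbp1. They lay below for 3, against 13.4%, namely Bst2, Irgm1 and Usp18. None of the 34 tested members passed by limma's test, 2 reached an unadjusted p under 0.05, and 3 genes in all passed (0.0278%) with 207 at an unadjusted p under 0.05. The median was 0.02, the highest values were 0.71 ± 0.75 for Ifit1, 0.64 for Ifit3 and 0.64 for Oasl2, and the lowest were -0.54 for Irgm1, -0.50 for Irf7 and -0.44 for Usp18.

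Between libraries titled 12 weeks and those titled 4 weeks, members differed in both directions, about as often as genes in general. Over the 8 cuprizone and recovery libraries, with genotype and diet phase as a block, 4 of the 34 tested members rose and 6 fell by limma's test, where 8.22% of all genes tested rose and 12.1% fell (20.3% in all). Feeding time and the run of sample numbers cannot be told apart here. The members' shares of 4 and 6 among 34 are near those background shares in either direction. The median difference was -0.22 over the members and -0.04 over all genes.

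Among those that rose, Slfn2 had log2 levels of 7.81, 7.82, 7.89, 9.29 and 9.30 in Trem2-/- libraries, against 7.51, 8.67, 8.10, 9.86 and 9.54 in WT libraries, in the order control, 4 weeks, 4 weeks and recovery, 12 weeks, 12 weeks and recovery. Oasl1 had 5.93, 6.10, 5.89, 6.94 and 7.28 in Trem2-/- libraries, against 5.55, 6.06, 5.59, 7.14 and 6.89 in WT libraries. Ifih1, which encodes the sensor of long double-stranded RNA MDA5, had 6.89, 6.95, 7.16, 7.45 and 8.08 in Trem2-/- libraries, against 6.96, 7.25, 6.96, 8.54 and 7.85 in WT libraries. For these 3 genes all 4 libraries titled 12 weeks lay above all 6 others, which held for 5.99% of all measured genes and 7.91% of those past the filter. The differences were 1.38 ± 0.11 for Slfn2 (adjusted p = 0.00015), 1.15 ± 0.12 for Oasl1 (adjusted p = 0.00059) and 0.90 ± 0.14 for Ifih1 (adjusted p = 0.0028). Ifit1 had 4.64, 4.76, 4.77, 5.30 and 6.58 in Trem2-/- libraries, against 4.35, 5.44, 4.19, 7.12 and 5.73 in WT libraries, a difference of 1.39 ± 0.19 (adjusted p = 0.0018). Its Trem2-/- library titled 12 weeks on cuprizone lay below the WT library after 4 weeks on cuprizone, so the sets overlap.

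Among those that fell, Xaf1 had log2 levels of 6.87, 7.40, 7.25, 5.75 and 5.99 in Trem2-/- libraries, against 7.07, 8.17, 7.23, 6.30 and 6.28 in WT libraries, in the same order. Its 4 libraries titled 12 weeks lay below the 6 others, as those of Irf1 and Irf9 did. This held for 6.51% of all measured genes and 11% of those past the filter. The Xaf1 difference was -1.43 ± 0.15 (adjusted p = 0.00059). Oas2 had 5.04, 5.62, 5.76, 5.15 and 5.11 in Trem2-/- libraries, against 5.20, 5.97, 5.76, 4.28 and 5.24 in WT libraries, a difference of -0.84 ± 0.19 (adjusted p = 0.016). Its controls and all its libraries titled 12 weeks lay below the table's median, where levels are close to background, so the size of this difference is uncertain. Ifi35, an interferon-induced protein that binds Nmi, had 6.62, 6.77, 6.80, 6.42 and 6.31 in Trem2-/- libraries, against 6.88, 7.15, 6.99, 6.78 and 6.31 in WT libraries, a difference of -0.47 ± 0.11 (adjusted p = 0.018). In each fed group the 12-week library was below the 4-week one for these 3 genes.

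Dhx58 had log2 levels of 5.49, 5.33, 5.36, 4.37 and 5.11 in Trem2-/- libraries, against 5.03, 5.80, 5.43, 5.21 and 5.07 in WT libraries, and a difference of -0.54 ± 0.13 (adjusted p = 0.022). All its libraries titled 12 weeks lay below the table's median, so the size of this difference is uncertain. Sp100 had 6.05, 6.66, 6.90, 5.96 and 6.66 in Trem2-/- libraries, against 6.44, 7.62, 6.54, 6.57 and 6.36 in WT libraries, and a difference of -0.54 ± 0.15 (adjusted p = 0.035). Ifitm3 had 8.69, 9.76, 9.77, 8.59 and 9.22 in Trem2-/- libraries, against 9.22, 10.62, 9.60, 9.91 and 9.48 in WT libraries, and a difference of -0.63 ± 0.16 (adjusted p = 0.022). For all 3 genes the 12-week library was the lower one in each of the 4 fed groups, but the control levels of Sp100 and Ifitm3 were below those of their own genotype after 4 weeks. With group as a block, leaving out either library of a fed group gave the same fit, so the 8 leave-outs were 4 distinct fits. Slfn2, Oasl1, Ifit1, Ifih1, Xaf1 and Oas2 also passed in each of them, Oas2 narrowly where a Trem2-/- recovery library was left out. Without a WT cuprizone library or without a Trem2-/- cuprizone library, Ifitm3, Dhx58 and Sp100 did not pass, with adjusted p-values up to 0.0772, 0.0777 and 0.143. Without a Trem2-/- recovery library Ifitm3, Sp100 and Ifi35 did not pass (0.0691, 0.0585 and 0.0683), and without a WT recovery library Ifi35 did not pass (0.0681), while Usp18 (-0.53, adjusted p = 0.029) and Bst2 (-0.59, adjusted p = 0.0174) did. With the conflictingly labelled library taken as 4 weeks, 3 members passed, namely Ifit1 (1.68, adjusted p = 0.016), Oasl1 (1.25, adjusted p = 0.040) and Ifih1 (1.04, adjusted p = 0.040), where 0.602% of all genes tested rose and 1.12% fell. By construction the Trem2-/- cuprizone libraries then add nothing to the difference. The other 7 of the 10 members kept their direction without passing, among them Slfn2 (1.35, adjusted p = 0.060), Xaf1 (-1.36, adjusted p = 0.076) and Oas2 (-0.96, adjusted p = 0.067). With that library as 12 weeks, limma's test called lower 7 of 7 neutrophil, 5 of 5 monocyte, 8 of 9 border macrophage and 3 of 9 microglia markers. Of all genes tested 12.1% were called lower there. By sign alone, 9 of 9 border macrophage and 8 of 9 microglia markers were lower. Their part in the members' differences was not tested.

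**Figure D5:**
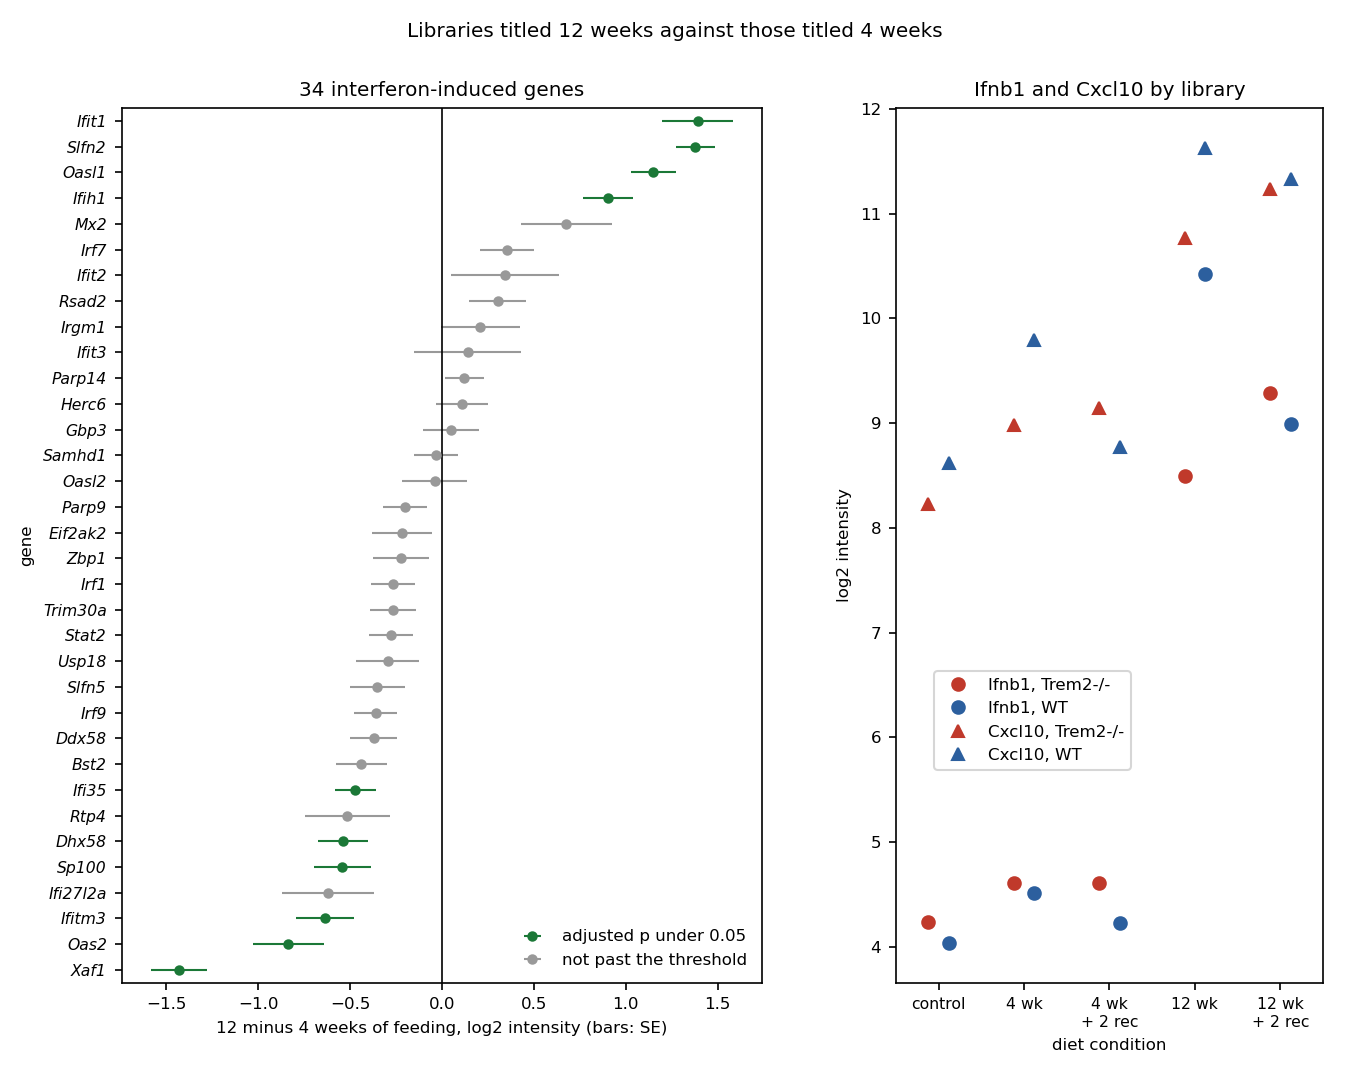
Left, log2 difference of libraries titled 12 weeks minus those titled 4 weeks with its SE for the 34 tested members, green where limma's test passed (4 above 0 and 6 below). Right, log2 levels of Ifnb1 and Cxcl10 in every library, with 1 point per library.

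Of the ligands, Ifnb1, the gene for interferon-beta, was higher in the libraries titled 12 weeks. It had log2 levels of 4.24, 4.61, 4.61, 8.49 and 9.29 in Trem2-/- libraries, against 4.04, 4.51, 4.23, 10.43 and 8.99 in WT libraries, in the order control, 4 weeks, 4 weeks and recovery, 12 weeks, 12 weeks and recovery. All 6 libraries of the first run lay below the table's median, so only a bound is given. With that median in place of the values at 4 weeks, Ifnb1 was at least 16.4-fold higher in the libraries titled 12 weeks. The adjusted p was 3.9e-05 by limma on the values as measured. The libraries titled 12 weeks are those of the second run, so feeding time and run cannot be told apart. They include the Trem2-/- library of conflicting labels (8.49), counted as 12 weeks here and for Cxcl10. Ifnb1 was the only called gene among the 5 interferon genes tested. Cxcl10, an interferon-induced chemokine that draws T cells, had 8.23, 8.98, 9.15, 10.76 and 11.24 in Trem2-/- libraries, against 8.62, 9.79, 8.77, 11.63 and 11.33 in WT libraries, a difference of 2.07 ± 0.14 (adjusted p = 8.7e-05). The libraries titled 12 weeks were the highest for both genes.

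The receptor chains were measured in every library. Ifnar1 had log2 levels of 8.22 to 8.52 in Trem2-/- libraries and 8.20 to 8.80 in WT libraries, and Ifnar2 lay between 10.07 and 10.44 in the 10 libraries. Ifng, the gene for interferon-gamma, had 4.04 to 4.76 and was not above the table's median in any library. The counts that follow stand beside the 8.22% of all genes that rose and the 12.1% that fell between 12 and 4 weeks. They count the library of conflicting labels as 12 weeks, and feeding time cannot be told apart from run. Of the 11 tested genes for receptors and signalling, 3 rose and 2 fell, Jak2 (0.61), Socs3 (0.45) and Stat3 (0.39) against Tyk2 (-0.54) and Ifngr1 (-0.47). Of the 13 tested genes of nucleic acid sensing upstream of interferon, 4 rose, Ikbke (0.79), Myd88 (0.78), Cgas (0.62) and Ticam1 (0.45), and 4 fell, Sting1 (-0.80), Mavs (-0.78), Irf3 (-0.49) and Tbk1 (-0.44). Of 55 further interferon-induced genes tested, 7 rose and 15 fell. In the 9 other comparisons none of the genes in these pathway lists passed without a block.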

How the data were processed

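Total RNA of sorted microglia was amplified into biotinylated cRNA from 2 ng and hybridised to 1 array per library, per the labels' protocols. The deposited table holds linear intensity values for 24567 probes. Their normalization, background correction and probe summarization: not given in the sources used here. Column medians of the deposited intensities were 37.62 to 39.25, and log2 was taken of these deposited values with no further scaling. Precision is limited by the 10 arrays.

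Of the probes, 21259 named 1 gene in the platform's annotation, and the brightest was kept for the 888 genes with several. Genes with at least 2 arrays above the table's median of 5.268 (log2) were tested. limma 3.58.1 in R 4.3.3 (lmFit, eBayes) was fitted over all of them, with Benjamini-Hochberg adjustment over all genes and a threshold of 0.05. The models were the 6 group means (4 residual degrees of freedom), genotype with the 5 diet conditions as a block (4), and feeding time with group as a block over 8 arrays (3). The spread of the first includes differences by feeding time and run. Its differences between cuprizone and control include them as well, since both controls lie in the first run. The tests were tried on simulated data. Alternatives were the titled duration as a block, the library of conflicting labels as 4 weeks, the mean over probes, no filter, array medians subtracted, quantile normalization, no condition block, and each library left out.

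Every listed gene is accounted for. Ifit1, Ifit3, Irf7, Usp18, Stat2, Rsad2, Oasl2, Bst2, Ifitm3, Irf1, Eif2ak2 and each member that passed get levels by library, and the 3 highest and 3 lowest differences are named in each comparison. Genes of the other interferon pathway lists are named where they passed, or as receptors, Cxcl10 or interferons. Other members named were chosen after their values were seen. The members and lists were chosen with earlier results of these data known.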

Additional observations from a re-analysis of the deposited data

Results flagged for a closer look

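In 10 genes of the set, recovery lay above cuprizone at both feeding times in Trem2-/- microglia and below it at both in WT microglia, as in 5.74% of all measured genes. The recovery change of Trem2-/- minus that of WT was 1.96 for Ifit1, 1.58 for Oasl2, 1.11 for Sp100, 1.05 for Ifitm3, 1.04 for Mx2, 0.90 for Ifih1, 0.68 for Stat2, 0.64 for Rsad2, 0.64 for Dhx58 and 0.48 for Slfn2 on the log2 scale. The opposed order of the libraries was not tested in itself, and limma's test of the fitted difference called none of the 10. In 2 of the 37 measured genes of the set (5.41%) both cuprizone libraries lay below the control in Trem2-/- and above it in WT. This held for 6.82% of all measured genes, so the order was not more common in the set. The cuprizone response of Trem2-/- minus that of WT was -1.12 for Dhx58 and -1.34 for Mx1. The opposed order was again not tested in itself, limma's test did not call Dhx58, and Mx1 was below the filter. Of 10 levels 1 lay above the table's median for Mx1 and 5 for Dhx58, and levels below it are close to background, so the sizes of both differences are uncertain, as is that of Ifit1.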

How the results depend on the processing

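The counts of members passing, and the medians over them, gave 306 values under the alternatives, of which 300 stayed close to the reported ones. Close means within 1.5 times for a count and within 0.196 for a median, the SD of that median between libraries of a group. This is a weak check. The counts were 0 in every comparison but that of 12 and 4 weeks, so most could hardly move. The bound of 0.196 exceeds several medians, such as 0.02 for Trem2-/- minus WT in recovery. The libraries behind it differ in feeding time, and a change of sign within it counted as close. Of the 153 medians, 20 moved by over 1.5 times or changed sign, 2 of them by sign: Trem2-/- minus WT in recovery without the WT recovery library titled 4 weeks, and Trem2-/- recovery minus cuprizone without the Trem2-/- cuprizone library titled 12 weeks, both at -0.00. The gene values for the conflicting library as 4 weeks in the block, and its comparison with the WT library after 4 weeks, were added after seeing the data. With the titled duration as a block, 2 members passed in WT cuprizone against control, where 0 had. With the conflictingly labelled library taken as 4 weeks, 3 members passed between 12 and 4 weeks, where 10 had. Leaving out each library in turn gave 7 to 13 members passing there. It gave medians of -0.49 to -0.22 for Trem2-/- minus WT on cuprizone, -0.61 to -0.20 for the difference in cuprizone response, -0.48 to -0.15 for WT recovery minus cuprizone and 0.35 to 0.72 for the difference in recovery change. Of 2443 values of single genes and of counts over all genes, 62 lost and 18 gained a call or moved by over 1.5 times. Counts over all genes moved most. Between Trem2-/- and WT on cuprizone 153 genes passed with the duration block (55 with the conflicting library as 4 weeks in it) and 0 to 42 with a library left out, where 36 had. In recovery 10, 8 and 0 to 4 passed in the same order, where 3 had. Over matched conditions 8 passed with the conflicting library as 4 weeks, 44 without the filter, 6 without the condition block and 8 to 103 with a library left out, where 28 had. In WT cuprizone against control 105 and 37 passed in the 2 block fits and 2 to 16 with a library left out, where 16 had. The block gave 13 in Trem2-/- cuprizone against control and 7 in WT recovery against cuprizone, where 0 had, and 9 for the difference in cuprizone response, where 1 had. Between 12 and 4 weeks 186 passed with the conflicting library as 4 weeks and 1064 to 1621 with a library left out, where 2194 had. Quantile normalization turned the split of those calls into 1089 higher and 1067 lower, against 887 and 1307. No paired analysis by replicate number was possible because the labels give no replicate numbers. With 2 libraries in a group, of different feeding times, and 1 control per genotype, only differences large against that spread can pass, and levels near the table's median are close to background, which can compress differences of dim genes such as Ifit1 and Irf7.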

Other observations

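Among the 55 further interferon-induced genes tested, 7 rose and 15 fell between 12 and 4 weeks, where 8.22% of all genes rose and 12.1% fell. Cxcl10, Cd69, Ccl5, Cxcl11, Gbp5, Nmi and Nlrc5 were higher in libraries titled 12 weeks than in those titled 4 weeks by limma's test. The chemokine Ccl5 differed by 1.55, the early activation marker Cd69 by 1.61 and the chemokine Cxcl11 by 0.87 on the log2 scale. Of the 15 that were lower, Plac8 had the largest difference, -1.84, followed by Rnf213 at -0.94 and Ifitm2, a relative of Ifitm3, at -0.93. The others called lower were Ddx60, Dtx3l, Fcgr1, Gbp7, Gbp8, Gbp9, Lgals3bp, Lgals9, Pml, Psmb9, Slfn8 and Uba7. Plac8 is also 1 of the monocyte markers, whose summed intensity was lower in the same libraries. With the titled duration as a block, limma's test called 3 of these 55 genes lower in Trem2-/- than in WT on cuprizone, Cd274, the gene for the checkpoint ligand PD-L1 (-1.56, adjusted p = 0.0028), Cd69 (-1.90, 0.0085) and Lgals3bp (-1.36, 0.018), where 1.28% of all genes were called lower. It called Cd274 (1.38, adjusted p = 0.0309), Lgals3bp (1.71, 0.0258) and Plac8 (1.69, 0.0155) higher in WT cuprizone than in the WT control, where 0.945% of all genes were called higher. With the conflictingly labelled library taken as 4 weeks, none of these calls passed. The adjusted p was then 0.0553 for Cd274 between the genotypes and 0.116 or more for the others.

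The summed intensity of 5 plasmacytoid dendritic cell markers, a cell type known for high interferon production, was 650.7 to 926.1 over the 10 libraries and overlapped between the libraries titled 12 weeks and the others (739.6 to 828.5). On cuprizone it was 650.7 to 803.2 in Trem2-/- libraries and 809.9 to 908.7 in WT libraries. The mean log2 level of the same markers overlapped (6.05 to 6.41 in Trem2-/- and 6.32 to 6.48 in WT), 2 of the 4 tested were higher in Trem2-/- and 2 lower, and Cox6a2 had the largest difference (-1.15).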
